A study of Mus musculus with 8 samples.

Results

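The genes described here encode the glycoproteins, laminins, proteoglycans and elastic fibre proteins of the extracellular matrix of mouse sciatic nerve. They were chosen by name as 38 genes, with earlier results of these data known. Every probe set that the array's platform annotation assigns to 1 of them was read on all 8 arrays. Probe sets were found for 37 of the 38 genes (83 of the array's 45101 probe sets), and 33 genes passed the filter on low signal, out of 12093 genes tested. Fbn1 is not analysed here.

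Each array held RNA of a 10 mm piece of sciatic nerve, pooled from 4 or 6 adult mice and collected 7 days after 1 nerve had been transected at the sciatic notch. There were 4 groups with 2 arrays each. KO.cut is the distal stump of c-Jun KO mice, and CTRL.cut is the distal stump of control mice, which the labels call WT. KO.uncut and CTRL.uncut are the intact nerves of the opposite side in c-Jun KO and in control mice. The labels do not name the promoter or Cre line behind the deletion. The labels give the tissue as Schwann cells and as schwannoma cells, but whole nerve segments were extracted, and fewer cells of a type and less RNA per cell cannot be told apart in such samples.

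In a nerve, each Schwann cell with its axon lies in a tube of basement membrane, built from laminin trimers, nidogens, collagen and the heparan sulfate proteoglycan perlecan. Around the tubes lies an interstitial matrix, made largely by fibroblasts, of collagen fibrils coated with small leucine-rich proteoglycans. After a nerve is cut the tubes persist and guide regrowing axons, while tenascin, fibronectin and chondroitin sulfate proteoglycans, which can favour or hinder axon growth, accumulate. c-Jun is a subunit of the transcription factor AP-1 and is induced in Schwann cells that have lost their axons.

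Values are RMA log2 expression, so that a difference of 1 is a 2-fold change. The level of 1 probe set is not set against that of another. Jun itself averaged 10.59 ± 0.29 in KO.cut, 11.92 ± 0.06 in CTRL.cut, 9.60 ± 0.02 in KO.uncut and 9.64 ± 0.09 in CTRL.uncut (mean ± SD, n = 2 each). Across the genes tested, r was 0.984 to 0.989 between replicates, 0.977 to 0.987 between KO and control arrays that were both cut or both uncut, and 0.853 to 0.894 for pairs of a cut and an uncut array. Of 10 Schwann cell markers 8 were measured, and their mean log2 level was 10.19 to 10.41 in KO.cut, 10.14 to 10.17 in CTRL.cut, 10.58 to 10.75 in KO.uncut and 10.79 on both arrays of CTRL.uncut. Their summed linear level was 14470 to 15610 in KO.cut and 15740 to 16710 in CTRL.cut. It was 20780 to 23460 in KO.uncut and 24790 to 25520 in CTRL.uncut. Between the cut groups the mean log2 level was thus higher in KO.cut, while the sum was lower.

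The first comparison sets KO.cut against CTRL.cut and asks which genes of the distal stump differ by c-Jun genotype. Of the 33 members measured, 3 (Tnc, Aebp1 and Vcan) were lower in KO.cut, none was higher and 30 did not pass the test (limma on all 8 arrays, Benjamini-Hochberg adjusted p under 0.05). Over all genes tested 1.09% were called, and 0.711% were called lower, while the 3 members are 9.09% of 33. The members were chosen with earlier results of these data known, so their share is not that of an independent list. The members' median log2 fold change was -0.04, against -0.01 for all genes tested. The series describes the 2 pools of a group as independent samples. The p-values rest on the spread between such pools, shared over all 4 groups and moderated over all genes tested.

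Tnc encodes tenascin-C, a large matrix glycoprotein that injured Schwann cells and fibroblasts secrete. Its log2 values were 11.18 and 11.63 in KO.cut, against 12.80 and 12.73 in CTRL.cut. They were 7.51 and 7.33 in KO.uncut, against 7.06 and 7.37 in CTRL.uncut. Both KO.cut arrays lay below both CTRL.cut arrays, both cut groups lay far above both uncut groups, and the uncut groups overlapped. The difference in cut nerve was -1.36 (SE 0.17, limma adjusted p = 0.0163), a level 2.56-fold lower in KO.cut. A second Tnc probe set read 7.86 and 8.45 in KO.cut, against 10.06 and 9.95 in CTRL.cut, a difference of -1.85 (limma adjusted p = 0.0193 among 20943 probe sets).

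Aebp1 encodes ACLP, a secreted collagen-binding protein with a discoidin domain that fibroblasts and smooth muscle cells make. Its values were 10.78 and 10.71 in KO.cut, against 11.79 and 11.58 in CTRL.cut. They were 9.67 and 9.50 in KO.uncut, against 9.52 and 9.66 in CTRL.uncut. The cut groups were again separate and the uncut groups overlapped. The difference in cut nerve was -0.93 (SE 0.12, limma adjusted p = 0.0163), 1.91-fold lower in KO.cut. Its second kept probe set gave -0.96 (limma adjusted p = 0.0262 among probe sets).

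Vcan encodes versican, a large chondroitin sulfate proteoglycan that binds hyaluronan. Its values were 9.80 and 9.72 in KO.cut, against 10.50 and 10.42 in CTRL.cut. They were 9.15 and 8.94 in KO.uncut, against 9.17 and 9.21 in CTRL.uncut. KO.cut lay above both uncut groups and below CTRL.cut, and both KO.uncut arrays were below both CTRL.uncut arrays. The difference in cut nerve was -0.70 (SE 0.10, limma adjusted p = 0.0269), 1.63-fold lower in KO.cut. Its other 2 kept probe sets gave -0.63 and -0.39 and did not pass (limma adjusted p = 0.119 and 0.521 among probe sets), although both KO.cut arrays were below both CTRL.cut arrays on each.

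These 3 calls rest on few arrays. Tnc lost its call without CTRL.cut replicate 1 (limma adjusted p = 0.106), CTRL.cut replicate 2 (0.0888) or KO.cut replicate 1 (0.0786). Aebp1 lost it without CTRL.cut replicate 1 (limma adjusted p = 0.0977), KO.cut replicate 1 (0.101) or KO.cut replicate 2 (0.0775). Vcan lost it without any 1 of the 4 cut arrays (limma adjusted p = 0.121 to 0.162), without either CTRL.uncut array (0.0665 each), or with the mean of its probe sets in place of the brightest (0.0557). With only the 4 cut arrays in the fit none of the 3 passed (limma adjusted p = 0.0593 for Tnc, 0.0691 for Aebp1 and 0.0857 for Vcan). The direction was the same in all of these fits.

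**Figure D1:**
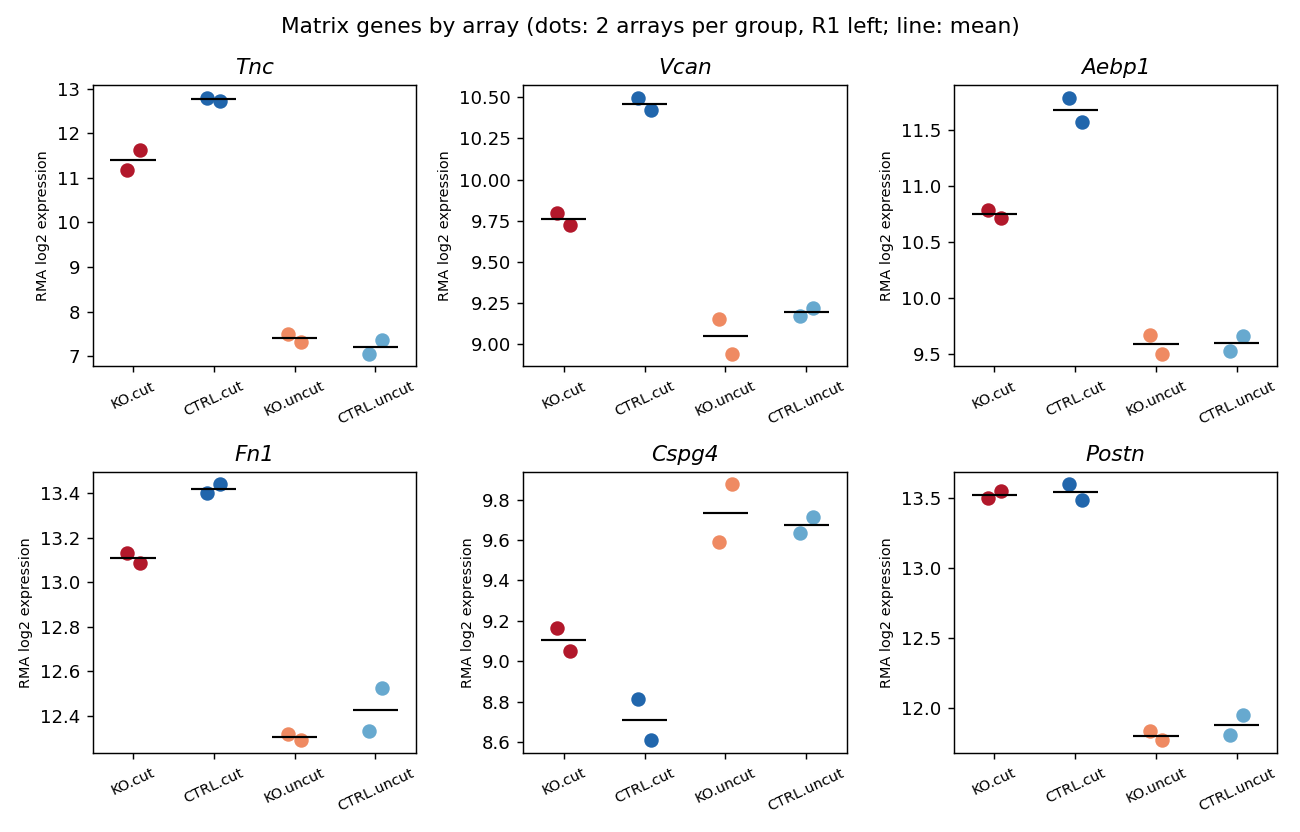
RMA log2 expression (vertical axis, a separate range in each panel) of 6 matrix genes on the 8 arrays, by group; dots are arrays and lines are group means. Tnc, Vcan and Aebp1 have both KO.cut arrays below both CTRL.cut arrays and above the uncut arrays, while Postn overlaps between KO.cut and CTRL.cut.

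The promoters of these 3 genes are shown because they are the members that differed by genotype in cut nerve, and c-Jun binds DNA as part of AP-1. Windows run from 250 bases before to 50 after an annotated start, build GRCm38.p6, and are written 5′ to 3′ on the gene's strand. They are chr4:64046966-64047265 on the minus strand for Tnc (the more upstream of its 2 windows), chr11:5861616-5861915 on the plus strand for Aebp1 and chr13:89742463-89742762 on the minus strand for Vcan. The whole Vcan window lies inside the span of its gene (chr13:89655309-89743027), so its start is an internal one. Capitals mark matches, on either strand, to the letters GGGCGG of a GC box, to TATAAA, the core of a TATA box, or to CCAAT.
Tnc: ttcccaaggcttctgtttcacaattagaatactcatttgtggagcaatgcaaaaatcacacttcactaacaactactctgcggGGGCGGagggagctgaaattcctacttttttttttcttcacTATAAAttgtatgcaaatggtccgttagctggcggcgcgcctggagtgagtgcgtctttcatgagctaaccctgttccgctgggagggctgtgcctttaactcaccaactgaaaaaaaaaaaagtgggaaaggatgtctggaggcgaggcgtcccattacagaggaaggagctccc
Aebp1: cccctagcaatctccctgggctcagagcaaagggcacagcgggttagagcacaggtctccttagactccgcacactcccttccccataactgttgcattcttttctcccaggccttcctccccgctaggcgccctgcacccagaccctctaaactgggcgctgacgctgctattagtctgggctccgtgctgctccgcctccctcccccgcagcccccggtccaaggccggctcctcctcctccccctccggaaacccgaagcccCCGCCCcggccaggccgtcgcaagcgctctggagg
Vcan: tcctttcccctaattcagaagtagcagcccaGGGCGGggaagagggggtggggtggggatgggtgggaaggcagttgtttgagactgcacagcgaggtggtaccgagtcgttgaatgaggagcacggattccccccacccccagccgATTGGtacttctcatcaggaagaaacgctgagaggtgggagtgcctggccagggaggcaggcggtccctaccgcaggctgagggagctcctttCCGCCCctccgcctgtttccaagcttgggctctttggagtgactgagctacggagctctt

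The AP-1 letters TGANTCA, searched on both strands, occur in none of these 3 windows, and neither does the related motif TGACGTCA. Of all 32851 promoter windows 7.81% hold TGANTCA and 1.79% hold TGACGTCA. Promoters were found for 28 of the 38 members (33 windows), and 1 of the 28, that of Tnxb, which encodes tenascin-X, holds TGANTCA. The match is shown in capitals with its surroundings, at chr17:34670470-34670496 on the plus strand. It lies inside the span of the gene (chr17:34660453-34719815), near an internal start.
Tnxb: tgacctttacTGAGTCAgttctcacac

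Tnxb did not pass between KO.cut and CTRL.cut (difference 0.00, limma adjusted p = 0.999). The Tnc window holds a TATA motif and a GC box, the Vcan window 2 GC boxes and a CCAAT motif, and the Aebp1 window a GC box. TATA motifs occur in 13.6%, GC boxes in 35.7% and CCAAT motifs in 37.4% of all windows. A match describes letters only, and a window without a match says nothing about AP-1 binding.

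Among the adhesive and matricellular proteins other than Tnc, none of 9 passed in cut nerve. Fn1, which encodes fibronectin, had 13.13 and 13.09 in KO.cut, against 13.40 and 13.44 in CTRL.cut. Both KO.cut arrays lay below both CTRL.cut arrays, but the difference of -0.31 did not pass (95% confidence interval -0.54 to -0.08, limma adjusted p = 0.353), and a second, dimmer probe set had the opposite sign (0.25). Thbs4, a pentameric thrombospondin, had 12.19 and 11.79 in KO.cut, against 12.61 and 12.40 in CTRL.cut. Its groups were also separate, and the difference was -0.51 (interval -0.98 to -0.04, limma adjusted p = 0.519). Thbs2, a trimeric thrombospondin that inhibits vessel growth, was higher on both KO.cut arrays, with a difference of 0.32 and an interval of -0.46 to 1.11. For periostin (Postn), which binds integrins and collagen, the difference was -0.02 (-0.25 to 0.21), and for Thbs1 it was 0.00 (-0.35 to 0.35). The collagen-binding protein Sparc stood at 0.04 (-0.24 to 0.32), its relative Sparcl1 at -0.06 (-0.30 to 0.18) and vitronectin (Vtn), an adhesive protein of plasma and matrix, at 0.02 (-0.52 to 0.55).

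None of the 10 basement membrane genes measured passed between KO.cut and CTRL.cut. Lama2, the alpha chain of the main laminin of Schwann cell tubes, had 10.60 and 10.28 in KO.cut, against 10.53 and 10.43 in CTRL.cut. The groups overlapped, and the difference was -0.04 (interval -0.41 to 0.34). The outermost estimates of the group were 0.15 for Nid2 (-0.16 to 0.46) and -0.09 for Hspg2, the perlecan gene (-0.56 to 0.38). Lama4, Lama5, Lamb1, Lamb2, Lamc1, Nid1 and Agrn lay between -0.08 and 0.07.

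The 6 small leucine-rich proteoglycans did not pass either. Biglycan (Bgn) stood at -0.20 (interval -0.49 to 0.10) and lumican (Lum) at -0.20 (-0.45 to 0.04), with both KO.cut arrays below both CTRL.cut arrays for each. Fibromodulin (Fmod) stood at 0.32 (-0.19 to 0.83), decorin (Dcn) at -0.07 (-0.29 to 0.16), osteoglycin (Ogn) at -0.01 (-0.48 to 0.46) and Prelp at -0.09 (-0.79 to 0.61). Cspg4 encodes NG2, a membrane-spanning chondroitin sulfate proteoglycan of pericytes and glial progenitors. It had 9.16 and 9.05 in KO.cut, against 8.81 and 8.61 in CTRL.cut. Both KO.cut arrays were above both CTRL.cut arrays, but the difference of 0.39 did not pass (interval 0.09 to 0.70, limma adjusted p = 0.364), as on its second probe set (0.39). The fibulin genes lay between -0.15 for Fbln1 and 0.05 for Fbln2, and elastin (Eln) stood at -0.04 (-0.88 to 0.80).

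For 29 of the 30 members that did not pass, the 95% interval of the difference in cut nerve lay within a 2-fold change in either direction, and for 20 within 0.5 on the log2 scale. Thbs2 was the exception to the 2-fold bound. The arrays of KO.cut and CTRL.cut did not overlap for 9 of 33 members (7 lower and 2 higher in KO.cut), while 34.6% of all genes tested did not overlap (20.1% lower and 14.5% higher in KO.cut).

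**Figure D2:**
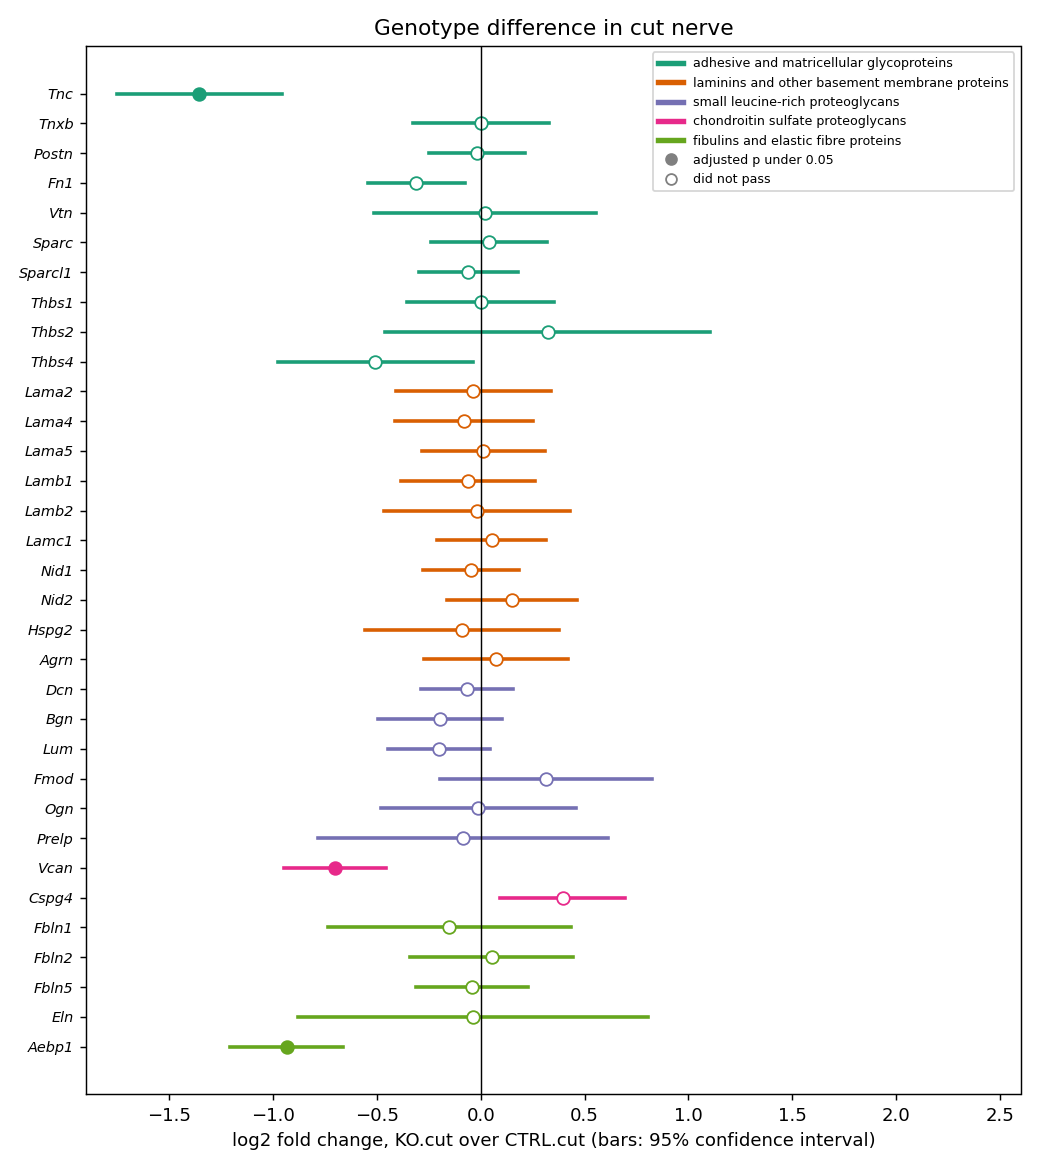
Log2 fold change of KO.cut over CTRL.cut (horizontal axis) for the 33 measured members, coloured by kind of protein, with 95% confidence intervals as bars. Filled points (Tnc, Vcan and Aebp1) passed at an adjusted p under 0.05; the 30 open points lie between -0.51 and 0.39.

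In uncut nerve no member passed between KO.uncut and CTRL.uncut, and limma called 0% of all genes tested (322 of 12093 had an unadjusted p under 0.05, none of them a member). The members' differences lay between -0.16 for Fmod and 0.28 for Thbs1, with a median of -0.02, against 0.03 for all genes tested. Every one of the 33 intervals lay within a 2-fold change in either direction, and 21 lay within 0.5 on the log2 scale. Tnc differed by 0.20 (interval -0.19 to 0.60), Aebp1 by -0.01 (-0.28 to 0.26) and Vcan by -0.15 (-0.39 to 0.10). Arrays did not overlap for 10 members (8 lower and 2 higher in KO.uncut), where 27.1% of all genes tested did not overlap (9.25% lower and 17.9% higher in KO.uncut).

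Injury was then read within each genotype. In mutant nerve (KO.cut against KO.uncut) 16 of 33 members were called, 9 higher and 7 lower after the cut (48.5%, where 36% of all genes tested were called, 18.1% higher and 17.8% lower). In control nerve (CTRL.cut against CTRL.uncut) 18 of 33 were called, 9 higher and 9 lower (54.5%, where 40.3% of all genes were called, 22.8% higher and 17.5% lower). The members' median was -0.13 in mutant and -0.0046 in control nerve, where that of all genes tested was -0.0013 in mutant and 0.05 in control nerve. Cut and uncut arrays did not overlap for 28 members in mutant nerve, with 14 up and 14 down after the cut (71% of all genes tested, 35.8% higher and 35.2% lower), and for 27 in control nerve, 14 higher and 13 lower (73.1% of all genes tested, 41.5% higher and 31.6% lower). Tenascin-C, periostin, fibronectin, Thbs2, biglycan, versican and Aebp1 rose in both genotypes. Tnxb, vitronectin, fibromodulin, osteoglycin, NG2 and Fbln5 fell in both.

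Tenascin-C, of the adhesive and matricellular proteins, changed most of all members. Tnc rose by 3.99 in mutant nerve (SE 0.17, limma adjusted p = 7.82e-06) and by 5.55 in control nerve (SE 0.17, limma adjusted p = 1.81e-06). Its second probe set had 4.56 and 4.97 in KO.uncut and 4.31 and 4.67 in CTRL.uncut, close to or below the 25th percentile of an array (4.95 to 5.01), so its rises of 3.39 in mutant and 5.52 in control nerve start from a dim level. Postn had 13.50 and 13.55 in KO.cut, against 11.84 and 11.77 in KO.uncut. In control nerve it had 13.60 and 13.49 in CTRL.cut, against 11.81 and 11.95 in CTRL.uncut. Cut and uncut arrays were well apart in both genotypes, and the rise was 1.72 in mutant nerve and 1.66 in control nerve (limma adjusted p = 2.31e-05 and 2.17e-05).

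Thbs2 had 11.87 and 11.75 in KO.cut, against 9.84 and 9.06 in KO.uncut. In control nerve it had 11.51 and 11.46 in CTRL.cut, against 10.04 and 9.05 in CTRL.uncut. The uncut replicates lay further apart than the cut ones in both genotypes. The rise was 2.36 in mutant nerve (SE 0.34, limma adjusted p = 0.00152) and 1.94 in control nerve (limma adjusted p = 0.00315), and both further probe sets rose in both genotypes. Fn1 had 13.13 and 13.09 in KO.cut, against 12.32 and 12.29 in KO.uncut, and in control nerve 13.40 and 13.44 in CTRL.cut, against 12.33 and 12.52 in CTRL.uncut. It rose by 0.81 in mutant and 0.99 in control nerve (limma adjusted p = 0.000783 and 0.000238), though its dimmer probe set did not pass in control nerve (0.86, limma adjusted p = 0.0701 among probe sets).

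Thbs1, an activator of latent TGF-beta, stood at 0.39 in mutant nerve (limma adjusted p = 0.0798) and rose in control nerve by 0.67 (0.01). Its second probe set rose in both (0.47 in mutant, 0.68 in control nerve). Thbs4 stood at 0.29 in mutant nerve (limma adjusted p = 0.297) and rose in control nerve by 0.73 (0.0232). The test of the difference between genotypes was not passed by either gene (limma adjusted p = 0.997 for Thbs1 and 0.997 for Thbs4). Tnxb fell by 0.52 in mutant and 0.48 in control nerve (limma adjusted p = 0.0231 and 0.028), and Vtn by 0.71 and 0.73 (0.0456 and 0.0383). Sparcl1 fell by 0.41 in mutant nerve (limma adjusted p = 0.0165) and stood at -0.29 in control nerve (0.0576). Sparc did not pass in either genotype (-0.23 in mutant, -0.28 in control nerve).

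The basement membrane genes had smaller values. No laminin gene rose. In mutant nerve none of the 6 measured passed, with Lama2 at -0.45, Lamb2 at -0.56 and Lamc1, the gamma chain shared by most laminins, at -0.20. In control nerve these 3 fell, Lama2 by 0.54 (limma adjusted p = 0.0305), Lamb2 by 0.61 (0.0382) and Lamc1 by 0.37 (0.0318). Lama2 had 10.60 and 10.28 in KO.cut, against 10.69 and 11.09 in KO.uncut. In control nerve it had 10.53 and 10.43 in CTRL.cut, against 11.07 and 10.97 in CTRL.uncut. Cut arrays were below uncut arrays in both genotypes. A second probe set of Lamc1 gave -0.03 in control nerve and did not pass.

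Lamb1 stood at -0.31 in mutant and -0.37 in control nerve, Lama4 at -0.19 and 0.00, and Lama5 at -0.13 and -0.02, and none passed. The nidogens, which link laminin to collagen, rose in mutant nerve (Nid1 by 0.33, limma adjusted p = 0.0344, and Nid2 by 0.44, 0.0381). In control nerve Nid1 stood at 0.23 and Nid2 at 0.27, and neither passed. The other 2 Nid1 probe sets passed in neither genotype, and 1 of them had the opposite sign in control nerve (-0.37). Perlecan (Hspg2, 0.13 in mutant and 0.22 in control nerve) and agrin (Agrn, 0.14 and 0.07), the other heparan sulfate proteoglycan of basement membranes, did not pass.

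The small leucine-rich proteoglycans went in both directions. Fmod, which binds collagen fibrils, had 9.71 and 9.14 in KO.cut, against 10.46 and 10.51 in KO.uncut. In control nerve it had 9.209 and 9.004 in CTRL.cut, against 10.89 and 10.39 in CTRL.uncut. Every cut array lay below every uncut array, and Fmod fell by 1.06 in mutant and 1.54 in control nerve (limma adjusted p = 0.00805 and 0.00128), as did each of its 5 further probe sets. Ogn had 12.58 and 11.97 in KO.cut, against 13.58 and 13.68 in KO.uncut. Control arrays had 12.12 and 12.45 in CTRL.cut, against 13.84 and 13.73 in CTRL.uncut. It fell by 1.35 in mutant nerve and fell by 1.497 in control nerve (limma adjusted p = 0.00191 and 0.000972), with groups that did not overlap.

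Bgn had 12.68 and 12.54 in KO.cut, against 12.30 and 11.99 in KO.uncut. Control nerves had 12.85 and 12.76 in CTRL.cut, against 12.129 and 12.002 in CTRL.uncut. It rose by 0.46 in mutant and 0.74 in control nerve (limma adjusted p = 0.0254 and 0.00317), as did both further probe sets. Dcn stood at -0.21 in mutant and -0.17 in control nerve, Lum at 0.20 and 0.29, and Prelp at -0.54 and -0.43, and none of them passed. A dimmer Dcn probe set fell in control nerve (-0.60, limma adjusted p = 0.0159 among probe sets).

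The chondroitin sulfate proteoglycans went opposite ways. Vcan rose by 0.71 in mutant and 1.27 in control nerve (limma adjusted p = 0.00178 and 9.3e-05), and its other 2 kept probe sets rose by 0.69 and 1.53 in mutant and by 1.15 and 2.03 in control nerve. Cspg4 had 9.59 and 9.88 in KO.uncut and 9.64 and 9.71 in CTRL.uncut, above all 4 cut arrays. It fell by 0.62 in mutant and 0.96 in control nerve (limma adjusted p = 0.00802 and 0.000966), and its second probe set fell by 0.47 and 0.77.

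Of the fibulin genes, Fbln5, which tethers elastin to cells, had 10.26 and 9.99 in KO.cut, against 11.03 and 10.99 in KO.uncut. In control nerve it had 10.17 and 10.16 in CTRL.cut, against 11.17 and 11.04 in CTRL.uncut. It fell by 0.88 in mutant and 0.94 in control nerve (limma adjusted p = 0.00105 and 0.000666). Aebp1, the gene of the collagen-binding ACLP, rose by 1.16 in mutant and 2.09 in control nerve (limma adjusted p = 0.00028 and 1.66e-05). Eln stood at 0.82 in mutant and 0.93 in control nerve, Fbln2 at 0.35 and 0.41, and Fbln1 at -0.39 and -0.29, and none passed. The interval for Eln ran from -0.02 to 1.66 in mutant and from 0.09 to 1.77 in control nerve.

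**Figure D3:**
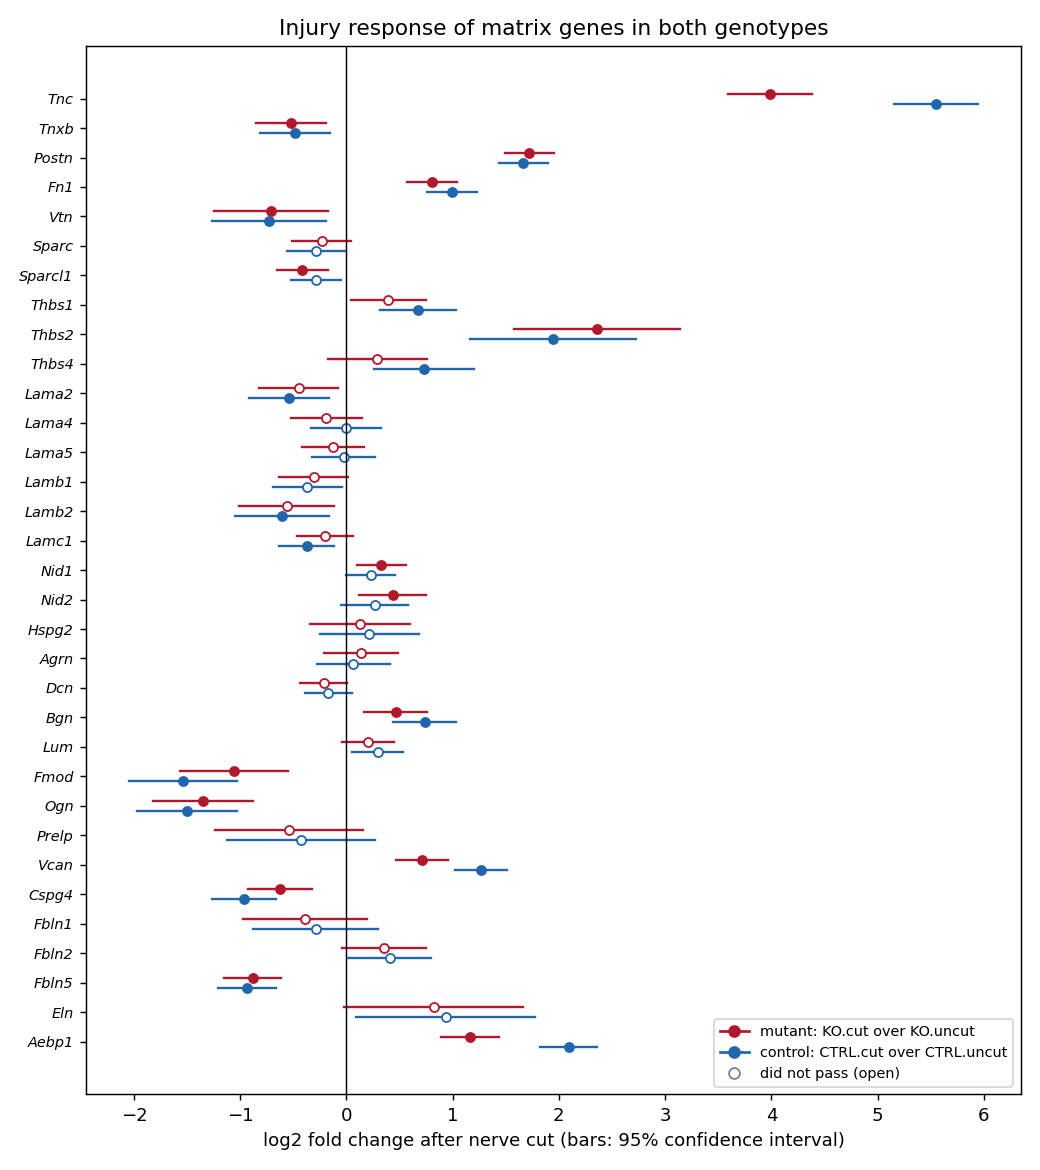
Log2 fold change after nerve cut (horizontal axis) for the 33 measured members in mutant nerve (KO.cut over KO.uncut) and control nerve (CTRL.cut over CTRL.uncut), with 95% confidence intervals as bars; open points did not pass. All 33 pairs have the same sign, and Tnc, at 3.99 and 5.55, changed most.

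The injury calls that held in every alternative fit, with or without an array left out, were those of Tnc, Postn, Fn1, Thbs2, Fmod, Ogn, Vcan, Fbln5 and Aebp1 in both genotypes, and those of Bgn and Cspg4 in control nerve. In mutant nerve, calls were lost by Cspg4 without KO.cut replicate 2 (limma adjusted p = 0.0509) and by Sparcl1 without KO.cut replicate 2 (0.0938) or KO.uncut replicate 1 (0.0921). Bgn lost its call there without KO.cut replicate 1 (limma adjusted p = 0.117), KO.cut replicate 2 (0.0568) or KO.uncut replicate 2 (0.14). Tnxb lost it without KO.cut replicate 2 (limma adjusted p = 0.135), KO.uncut replicate 1 (0.0574) or KO.uncut replicate 2 (0.108). Nid1 lost it without any 1 of the 4 mutant arrays (limma adjusted p = 0.0562 to 0.166). Nid2 lost it without KO.cut replicate 1, either KO.uncut array or either CTRL.cut array (limma adjusted p = 0.0545 to 0.193). Vtn lost it without any array other than KO.cut replicate 1 (limma adjusted p = 0.0509 to 0.225) and with arrays centred on their median (0.0505). With only the 4 mutant arrays in the fit, Bgn (limma adjusted p = 0.0592), Nid1 (0.0732), Nid2 (0.0746) and Vtn (0.0701) did not pass, and with the mean of its probe sets Nid1 did not pass either (0.108).

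In control nerve, Lama2 and Lamc1 each lost their call without any 1 of the 4 control arrays (limma adjusted p = 0.0725 to 0.127 for Lama2 and 0.056 to 0.163 for Lamc1). With the mean of its probe sets Lamc1 stood at -0.20 and did not pass (limma adjusted p = 0.296). Lamb2 lost it without CTRL.cut replicate 1, CTRL.cut replicate 2, CTRL.uncut replicate 1 or either KO.uncut array (0.0507 to 0.2), and the same arrays decided Vtn (0.0558 to 0.193). Thbs1 lost it without CTRL.uncut replicate 1 (limma adjusted p = 0.0552). Thbs4 lost it without CTRL.cut replicate 1 (0.109), CTRL.cut replicate 2 (0.0501) or CTRL.uncut replicate 2 (0.127). Tnxb lost it without CTRL.cut replicate 2 (limma adjusted p = 0.148), CTRL.uncut replicate 1 (0.1) or CTRL.uncut replicate 2 (0.0992).

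Set side by side, the injury response had the same sign in mutant and control nerve for 33 of 33 members, where 10245 of all 12093 genes tested had the same sign. Some values lay near 0, as for Lama4 in control nerve, where -0.0046 ran from -0.16 to 0.15 over the alternative fits. Of the members 7 were called higher in both, 6 lower in both, 3 in mutant nerve alone (Sparcl1, Nid1 and Nid2), 5 in control nerve alone (Thbs1, Thbs4, Lama2, Lamb2 and Lamc1) and 12 in neither. Over all genes tested, 3637 of 12093 were called in both with the same sign. Thbs1, Lama2 and Lamb2 also passed in mutant nerve, and Sparcl1 in control nerve, under at least 1 alternative fit. Across the 33 members the log2 fold changes correlated with Pearson's r of 0.974 and Spearman's rho of 0.981, and with r of 0.957 without Tnc. The correlation was not computed over all genes tested. Genes are not independent replicates, so no test goes with these values. The absolute change was larger in control nerve for 21 of 33 members, a count that was not made over all genes tested.

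The difference between the injury responses was tested as the genotype by injury interaction, which 0 of 33 members passed under limma. Over all genes tested 0.165% were called (0.0662% higher and 0.0992% lower). An unadjusted limma p under 0.05 was found for 3 members (Tnc, Aebp1 and Vcan) and for 731 of all 12093 genes tested. Tnc stood at -1.56 (SE 0.24, limma adjusted p = 0.0726), Aebp1 at -0.93 (SE 0.17, limma adjusted p = 0.12) and Vcan at -0.56 (SE 0.15, limma adjusted p = 0.346). Tnc passed with the mean of its probe sets (limma adjusted p = 0.05 after rounding), with a trended and robust variance (0.0475) and without KO.cut replicate 2 (0.0364). For the 7 members Tnc, Thbs2, Thbs4, Fmod, Prelp, Eln and Aebp1 the interval reached beyond 1 on the log2 scale, so these arrays do not bound their difference between genotypes to 2-fold.

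The 4 members with a probe set that did not pass the filter were above the array median on 0 arrays. Tnr, tenascin-R, a glycoprotein of central nervous tissue, lay between 3.07 and 3.74 on the 8 arrays. Lama1, the laminin alpha chain of early embryos, lay between 4.30 and 4.88. Acan, the aggrecan gene, lay between 5.72 and 6.35, and the brightest of 3 probe sets of Ncan, the neurocan gene, between 5.08 and 5.53. These proteoglycans are large and known from cartilage and brain matrix. The array medians were 6.59 to 6.65.

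**Figure D4:**
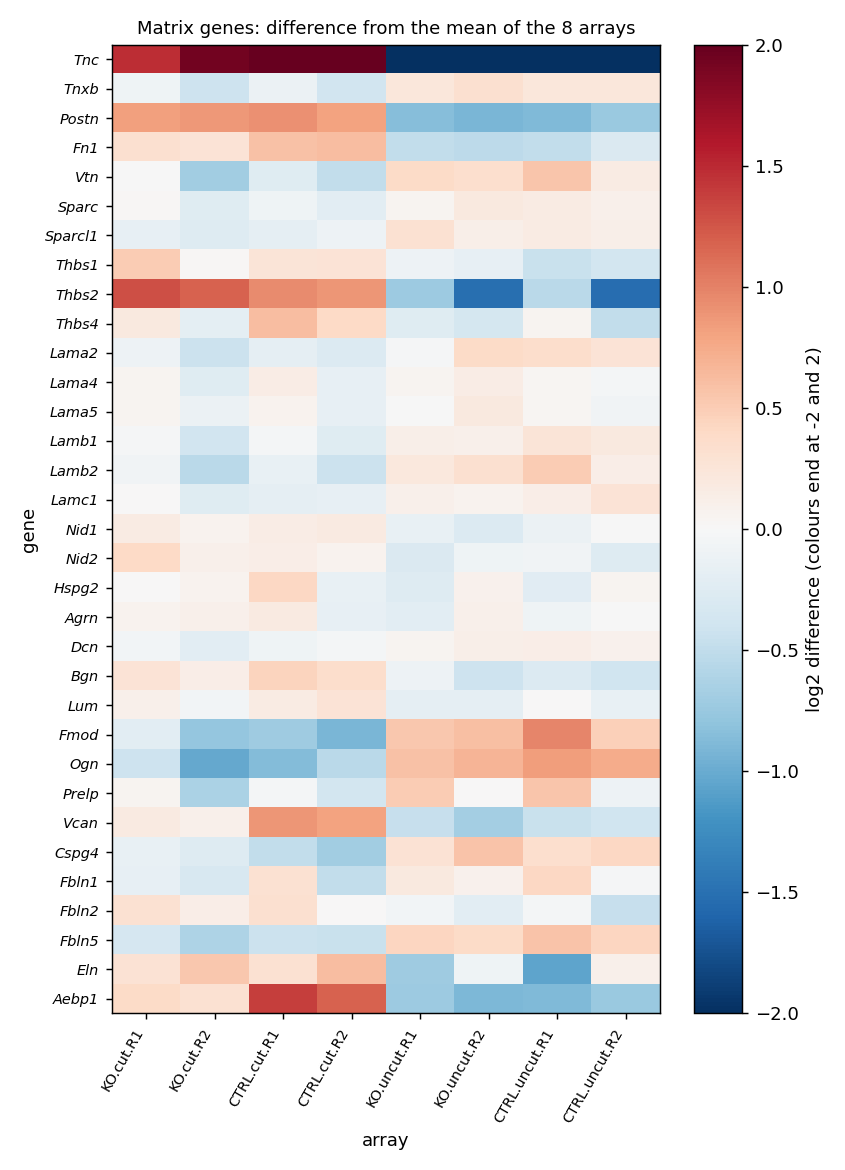
Difference of each measured member from its own mean over the 8 arrays (colour, log2 scale, ending at 2 in either direction), with arrays in columns by group and members in rows by kind of protein. The cut and uncut columns differ in most rows, while KO.cut and CTRL.cut differ visibly in the rows of Tnc, Vcan and Aebp1.

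Replicates lay furthest apart for Eln, with a mean gap of 0.583 between replicates 1 and 2 over the 4 groups, then for Prelp (0.543) and Thbs2 (0.486). The gap was 0.0686 for Dcn, 0.0761 for Fn1 and 0.0907 for Nid1. Replicate 1 was above replicate 2 in all 4 groups for 9 members (Prelp, Thbs2, Fbln1, Vtn, Thbs4, Fbln2, Bgn, Lamb1 and Fbln5) and below it in all 4 for 1, Eln. These counts were not made over all genes tested, where same-numbered arrays deviated together with r of 0.0226 to 0.34. The mean level of 5 fat cell markers was also higher in replicate 1 than in replicate 2 in all 4 groups, and its part in these gaps was not tested.

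Related genes were read from further lists, which were also chosen with earlier results of these data known. Of 27 cell surface matrix receptors measured, none passed between KO.cut and CTRL.cut. After injury 5 rose and 8 fell in mutant nerve, and 7 rose and 9 fell in control nerve. That is 48.1% called in mutant and 59.3% in control nerve, where 36% and 40.3% of all genes tested were called. Cd44, the hyaluronan receptor, rose by 2.41 in mutant and 2.12 in control nerve, and Itgb8 by 1.47 and 1.14. The laminin receptor subunits Itgb4 and Itga6 fell, Itgb4 by 1.48 in mutant and 1.71 in control nerve, and Itga6 by 0.71 and 1.28. Bcam, a laminin-binding surface protein, fell by 1.06 and 0.76, and Itga5, the fibronectin receptor subunit, rose by 0.79 and 1.19.

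Of 14 further laminin chains and basement membrane genes 8 were measured. None passed by genotype in cut nerve, none rose after injury, and 5 fell in mutant and 6 in control nerve, among them Smoc1 (-1.43 in mutant, -1.27 in control nerve) and Fras1 (-1.07 and -1.15). These are 62.5% in mutant and 75% in control nerve, against the same 36% and 40.3% of all genes tested. Of 25 measured genes of chondroitin and heparan sulfate synthesis none passed by genotype in cut nerve. In mutant nerve 5 rose and 3 fell after injury, and in control nerve 7 rose and 3 fell, with the chondroitin synthase gene Chsy1 at 0.70 in mutant and 0.94 in control nerve. The shares called, 32% in mutant and 40% in control nerve, did not exceed those of all genes tested. Of 14 measured genes of matrix cross-linking and assembly none passed by genotype in cut nerve, 3 rose and 2 fell after injury in mutant nerve, and 6 rose and 2 fell in control nerve (35.7% called in mutant and 57.1% in control nerve). Lox, which cross-links collagen and elastin, fell by 1.21 in mutant and 0.86 in control nerve.

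Of 33 other matrix glycoproteins and proteoglycans measured, 2 were lower in KO.cut than in CTRL.cut. That is 6.06%, where 1.09% of all genes tested were called and 0.711% were called lower. Gpc1, a cell surface heparan sulfate proteoglycan, stood at -1.10 (SE 0.17, limma adjusted p = 0.0325), and Emilin1, an elastic fibre glycoprotein, at -0.84 (SE 0.12, limma adjusted p = 0.0236). The median of this list was -0.21 and 30 of 33 values were below 0, where 6480 of 12093 genes tested were below 0. Values below 0 were also found for 11 of 14 cross-linking and assembly genes (median -0.22) and 20 of 25 sulfate synthesis genes (-0.10). Of the matrix receptors 12 of 27 were below 0, and of the further basement membrane genes 2 of 8. After injury 12 rose and 8 fell in mutant nerve, and 14 rose and 7 fell in control nerve. That is 60.6% called in mutant and 63.6% in control nerve, where 36% and 40.3% of all genes tested were called. The collagen-associated Cthrc1 stood at 4.29 in mutant and 5.16 in control nerve, and the fibrillin gene Fbn2 at 3.64 and 4.18. Both start from dim levels, since Cthrc1 averaged 6.70 in KO.uncut and 6.53 in CTRL.uncut, and Fbn2 5.81 in KO.uncut and 6.00 in CTRL.uncut, where the array medians were 6.59 to 6.65.

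Markers of the cell types in the segment were read in the same comparisons. Over all genes tested 1.09% were called between KO.cut and CTRL.cut. Between KO.cut and CTRL.cut, 4 of 8 measured markers of denervated Schwann cells were lower (Olig1 -2.71, Gdnf -2.04, Gap43 -2.01 and Shh -1.96). Their summed linear level was 6956 to 7766 in KO.cut and 16600 to 16830 in CTRL.cut, 1755 to 2221 in KO.uncut and 2352 to 2528 in CTRL.uncut. Of 12 fibroblast markers 1, Thy1, was lower in KO.cut (-0.81, limma adjusted p = 0.016), and their sum was 61260 to 65240 in KO.cut, 66880 to 68060 in CTRL.cut, 49980 to 50870 in KO.uncut and 50190 to 51080 in CTRL.uncut. Of 8 Schwann cell markers 1, Egfl8, was higher (1.04), and none of 12 macrophage, 11 endothelial, 10 mural, 7 perineurial, 10 skeletal muscle or 5 fat cell markers passed. The part of these markers in the lower Tnc, Aebp1 and Vcan of KO.cut was not tested.

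With injury, 10 of 12 macrophage markers rose in mutant and 11 in control nerve, and their sum was 44620 to 52200 in KO.cut, 47370 to 51340 in CTRL.cut, 12880 to 15910 in KO.uncut and 12880 to 15700 in CTRL.uncut. Of 7 perineurial markers 5 fell in mutant and 6 in control nerve, with sums of 6319 to 7441 in KO.cut, 6363 to 6767 in CTRL.cut, 13050 to 13650 in KO.uncut and 13060 to 15300 in CTRL.uncut. Skeletal muscle markers rose as well, 10 of 10 in mutant and 7 of 10 in control nerve, with sums of 98010 to 143800 in KO.cut, 91750 to 109800 in CTRL.cut, 29640 to 53380 in KO.uncut and 28720 to 50590 in CTRL.uncut. Of 5 fat cell markers 3 fell in each genotype. Of 8 markers of denervated Schwann cells 6 rose in mutant nerve, and 7 rose and 1 fell in control nerve. Of 8 Schwann cell markers 3 rose and 3 fell in mutant nerve, and 2 rose and 3 fell in control nerve. Of 12 fibroblast markers 4 rose and 2 fell in each genotype, and of 11 endothelial markers 5 fell in mutant and 2 in control nerve. Of 10 mural markers 1 rose and 3 fell in mutant nerve, and 1 rose and 2 fell in control nerve. Over all genes tested 36% were called in mutant and 40.3% in control nerve. The endothelial (18.2%) and mural (30%) markers in control nerve were the lists below that share. RMA values have no 0, so no marker could be listed as undetected. The part of these cell types in the members' injury values was not tested.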

How the data were processed

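Pooled nerve segments of 4 groups, assigned from the sample titles, were hybridised to 8 Affymetrix arrays of 1 colour. The deposited values are log2 expression per probe set, which the authors made with RMA and affy, per the submitters' processing notes, without stated versions. RMA shrinks differences between dim probe sets and hides a shift shared by a whole array. No further normalization was applied. Detection calls and scan dates were not used here, so array batches were not tested, and 2 arrays a group limit precision.

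Symbols were read from the platform annotation (34945 of 45101 probe sets have 1 symbol, 932 several and 9224 none), and 37 of 37 members matched a current gene table. Probe sets above their array's median on at least 2 arrays were kept, and the brightest one stood for its gene, which left 12093 of 18193 genes. Of the members' 83 probe sets 66 were kept, and 22 members had more than 1. In R 4.3.3, limma 3.58.1 fitted group means to all arrays (4 residual degrees of freedom, 3.59 prior), with 5 contrasts, two-sided moderated tests and Benjamini-Hochberg adjustment over all genes at 0.05. The fit was tested on simulated data with noise independent between arrays, which the real arrays need not have. It called 24% of changes of 0.5 for genotype in cut nerve, 16% for injury in control and 24% for injury in mutant nerve. Of changes of 1 it called 96%, 88% and 94%. The members and lists were chosen with earlier results of these data known. Named were Jun, all members, their further probe sets, and of each other list up to 4 called genes with the largest change in a contrast. Alternatives were other filters, probe set rules, normalizations, variance models, a replicate block, fits of 4 arrays alone, and fits without each array. The intact nerves come from the opposite side of operated mice, so cut and uncut pools may share mice, but no label ties a replicate number to the same mice. The numbers were therefore not taken as pairs. Same-numbered arrays deviated together with r of 0.0226 (CTRL.cut with KO.uncut) to 0.34.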

Additional observations from a re-analysis of the deposited data

How the results depend on the processing

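All 33 measured members were recomputed in every contrast, which gave 2927 values: 73 lost a call (62 of them with an array left out), 41 gained one, and 158 that passed neither before nor after changed sign. No called value turned direction. For genotype in cut nerve, 3 members were called, 0 with only the 4 cut arrays in the fit, and 0 to 3 with an array left out. For the interaction 0 were called, 1 (Tnc) with the mean of the kept probe sets, 1 (Tnc) with a trended and robust variance, and 0 to 1 with an array left out. Members called with an array left out numbered 11 to 16 for injury in mutant and 12 to 19 for injury in control. Fewer arrays leave fewer degrees of freedom.

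Over all genes, 132 were called for genotype in cut nerve, 31 with only the 4 arrays compared, and 13 to 111 with an array left out. For genotype in uncut nerve 0 were called, 1 with the mean of the kept probe sets or with probe sets as units, 9 with only the 4 arrays compared, and 0 to 2 with an array left out. The interaction gave 20, with no filter 33, with the 75th percentile filter 11, with the mean of probe sets 33, with trended and robust variance 31, and 0 to 45 with an array left out. Injury in mutant gave 4348, 6660 with probe sets as units, and 2734 to 4260 with an array left out. Injury in control gave 4877, with probe sets 7555.

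The replicate block gave 3, 0, 20, 23 and 0 members called for the genotype contrasts in cut and in uncut nerve, for injury in mutant and in control nerve and for the interaction, and 174, 4, 4979, 5543 and 25 genes in all. Under it Lamb2, Prelp, Fbln2 and Eln also passed in mutant nerve, and Sparcl1, Lamb1, Prelp, Fbln2 and Eln in control nerve. RMA values near the array median or below, such as those of Tnr, Lama1, Acan and Ncan, cannot show small differences.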
